A study of Rattus norvegicus with 2 samples.

Results

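The genes described here are 8 channels and pumps that move water and salt across the linings of the lung: the water channels Aqp1, Aqp4 and Aqp5, the epithelial sodium channel subunits Scnn1a, Scnn1b and Scnn1g, the Na,K-ATPase subunit Atp1b1 and the chloride channel Cftr. They were taken by symbol from the count matrices, and all 8 were found among the 42172 genes listed. Their unique molecular identifiers (UMIs, 1 per captured RNA molecule) were followed through the epithelial, endothelial and mesothelial cells. The study profiled dissociated rat lung by droplet-based 3′ single-cell RNA sequencing, to see how lung cells differ after a blast. The explosion library came from lungs of rats put through a gas explosion, the control library from lungs of rats that were not, and both groups were kept under specific pathogen-free conditions. The strain, sex and age of the rats, the number of rats per library and the time between the explosion and the sampling are not given in the labels used here. With 1 library per group there was no test, and the explosion and the library itself cannot be told apart. Intervals in parentheses are 95% intervals that cover counting error only.

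Fluid is cleared from the airspaces by active salt transport. Sodium enters epithelial cells from the air side through the epithelial sodium channel (ENaC), built from the alpha, beta and gamma subunits that Scnn1a, Scnn1b and Scnn1g encode, and the Na,K-ATPase pumps it out on the tissue side, so that water follows. Aquaporins let water cross membranes: in rodent lung Aqp5 is known from type 1 alveolar cells and airway glands, Aqp4 from the basal side of airway epithelium, and Aqp1 from capillary endothelium and the mesothelium that covers the lung. Cftr, the gene altered in cystic fibrosis, passes chloride and bicarbonate.

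The explosion library held 12642 barcodes with a median of 538.5 UMIs, and the control library held 21117 barcodes with a median of 4917 UMIs. Filters left 11845 explosion cells and 19231 control cells, of which 2321 and 5483 were named as epithelial, endothelial or mesothelial. The club cell secretoglobin Scgb1a1 accounted for 5.94% of UMIs in the explosion library and 24.1% in the control library. Of 32 clusters, 23 drew more than 80% of their cells from 1 library. The 2 libraries shared 85 barcode sequences. Class names ending in -like were rebuilt here from marker genes.

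Of the epithelial, endothelial and mesothelial classes, 5 had at least 50 cells in both libraries and were compared. Type 2 alveolar-like cells (cluster 26) numbered 98 in the explosion and 158 in the control library, with medians of 654 UMIs (explosion) and 780.5 UMIs (control), and all 12 of their markers in the files had UMIs. Secretory-like airway cells numbered 714 in the explosion and 2946 in the control library, with medians of 1387.5 UMIs (explosion) and 11394.5 UMIs (control), and the markers Reg3g and Tff2 were at 0 in both libraries while 13 of 15 were present. Ciliated-like cells numbered 295 in the explosion and 1058 in the control library, at medians of 862 UMIs (explosion) and 4817 UMIs (control), with 14 of 14 markers present. Blood endothelial-like cells (cluster 20) numbered 229 in the explosion and 153 in the control library, at medians of 434 UMIs (explosion) and 1316 UMIs (control), with 14 of 14 markers present. Mesothelial-like cells numbered 971 in the explosion and 1086 in the control library, at medians of 788 UMIs (explosion) and 2038.5 UMIs (control), with 11 of 11 markers present.

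Different clusters held most of a class in each library. Secretory-like explosion cells lay mostly in cluster 16 (600 explosion and 43 control cells), and control cells in cluster 3 (78 explosion and 1950 control) and in the mucous cluster 10, led by Scgb3a1, Bpifa1 and Muc5b (36 explosion and 953 control). Mesothelial-like cells lay in cluster 9 (959 explosion and 62 control) and cluster 8 (12 explosion and 1024 control). Ciliated-like cells lay in cluster 13 (281 explosion and 565 control) and cluster 19 (14 explosion and 493 control). The control cells of cluster 19 had a median of 15316 UMIs, and secretory markers summed to 484709 of every 1000000 UMIs there against 92195 in control cells of cluster 13, so ciliated values are also given for cluster 13 alone, which is the class without it. No cluster could be named type 1 alveolar, basal or lymphatic endothelial. Cluster 29, with 4 explosion and 144 control cells, had 9 of 12 type 1 alveolar markers under the marker rule. In its control cells type 1 alveolar markers summed to 2811 CPM (UMIs per 1000000 of the same cells), with 12 of 12 seen, and mesothelial markers to 7485 CPM, with 11 of 11 seen, while control mesothelial-like cells themselves had type 1 alveolar markers at 1790 CPM. Its control cells had a median of 1142.5 UMIs against 4677 in all control cells. Its 10 leading genes began with the mesothelial marker Krt19 and held no type 1 alveolar marker, and it stayed unnamed.

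Levels are given as CPM, the UMIs of a gene per 1000000 UMIs of all genes in the same class and library. The median gene was itself higher in the explosion library in each of the 5 classes: by 1.07 on the log2 scale in type 2 alveolar-like, 1.34 in secretory-like, 0.92 in ciliated-like, 0.43 in endothelial-like and 0.47 in mesothelial-like cells. Secretoglobins took 40.9% of the secretory-like UMIs in the explosion library and 65.3% in control, and 16.9% of explosion and 40.6% of control ciliated-like UMIs. Their part in that shift was not tested. A gene was called higher or lower when the interval of its CPM ratio, explosion over control, lay wholly beyond 1.5-fold and it had at least 10 UMIs over both libraries in the class.

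Of the 40 pairs of a gene and a class, 26 reached 10 UMIs, and 13 of these were called higher and 0 lower in the explosion library. In secretory-like cells 7 of 8 genes were called higher, where 42.6% of all genes measured in the class were called higher, and 0 of 8 lower, where 1.34% of all genes were. In ciliated-like cells 4 of 8 were called higher against a background of 23.3%, and 0 lower against 2.6%, and in cluster 13 alone 5 of 7 measured were called higher against 8.94% and 0 lower against 6.59%. In type 2 alveolar-like cells 2 of 3 measured genes were called higher against 15.6%, and 0 lower against 3.98%. In mesothelial-like cells 0 of 6 were called in either direction, where 20.3% of genes were called higher and 7.49% lower, and in endothelial-like cells 0 of 1, where 8.78% were called higher and 5.48% lower. With the secretoglobins left out of the class totals, 6 pairs were called higher and 1 lower. The share of all genes called with those totals was not taken, so these counts have no background to be read against.

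Set against the median gene of the same class, the picture was narrower. Only Scnn1a and Cftr in secretory-like cells were then called higher, against 11.5% of all genes there, and only Aqp5 was called lower in secretory-like cells, against 10.9%, and in ciliated-like cells, against 9.12%. Without the mucous cluster 10, Scnn1a in secretory-like cells was no longer called, at 1.68 (1.43 to 1.97). No ciliated-like member was called higher, against 6.2%. In cluster 13 alone this turned round: 5 members were called higher relative to its median gene, against 7.28% of genes, and 0 lower, against 7.75%. They were Aqp1 at 8 (2.74 to 23.8), Aqp5 at 3.55 (1.62 to 7.39), Scnn1a at 2.51 (1.59 to 3.88), Scnn1b at 21.3 (8.11 to 65.6) and Scnn1g at 16.6 (7.28 to 41.1), on 6 to 82 control UMIs each. No member was called in type 2 alveolar-like cells, where 3.05% of genes were higher and 12.1% lower, in endothelial-like cells (4.03% and 9.87%), or in mesothelial-like cells (9.81% and 13.1%).

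**Figure D1:**
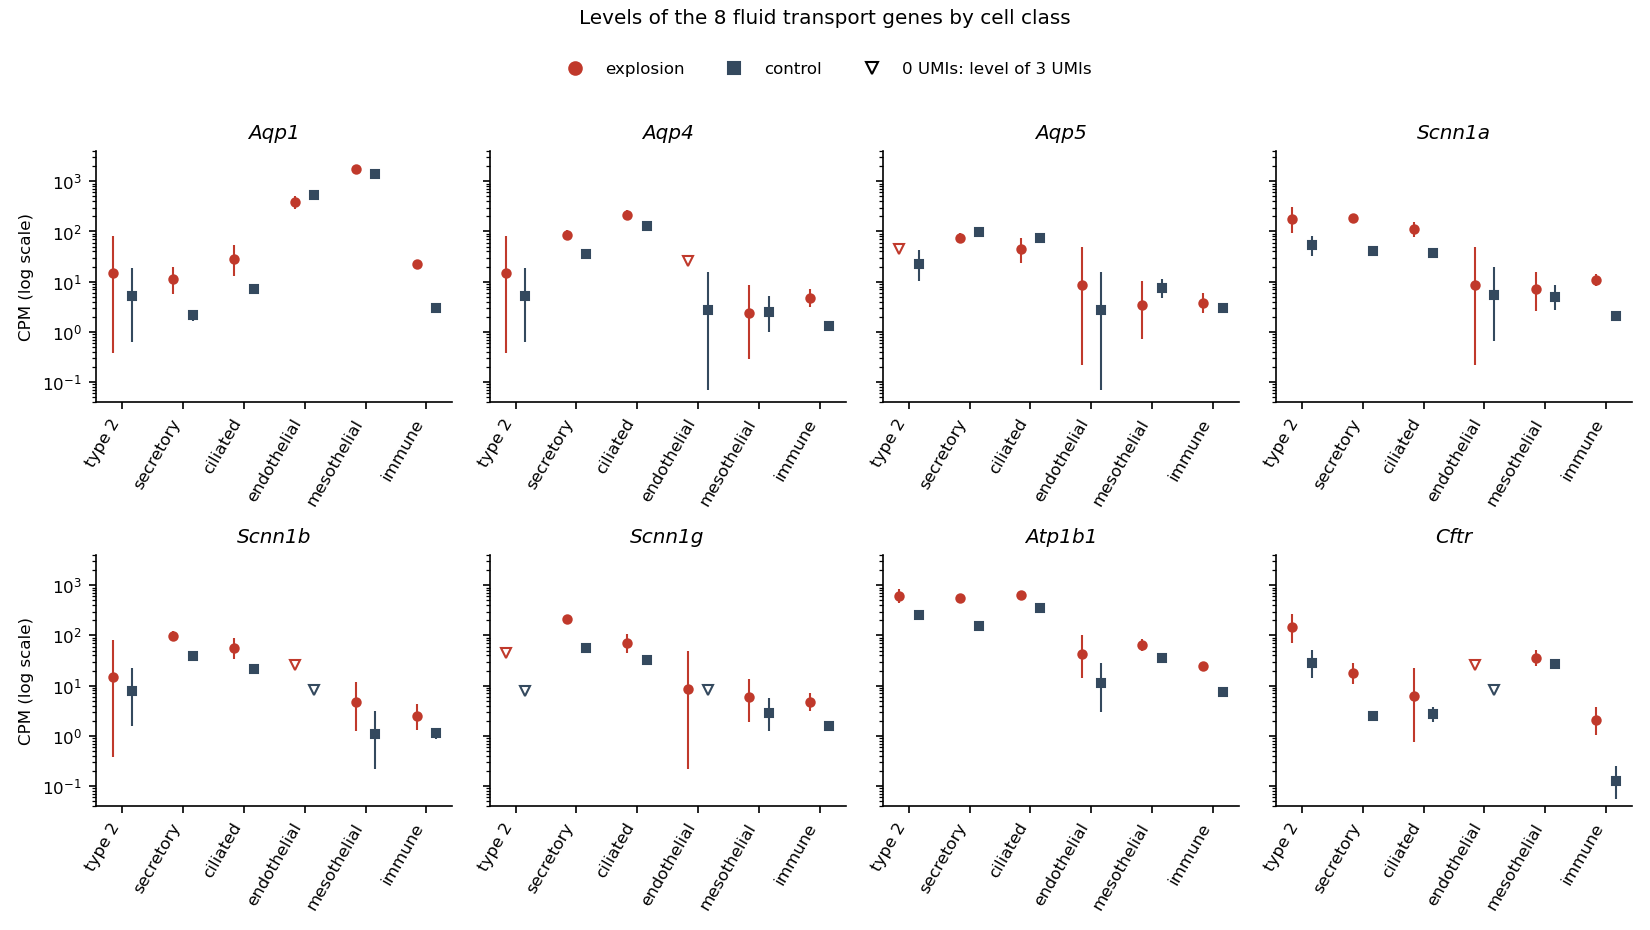
CPM (log axis) of each gene in the 5 compared classes and in all immune classes together, explosion (circles) left of control (squares), with 95% counting intervals; open triangles mark 0 UMIs, drawn at the level of 3 UMIs. Aqp1 stood highest in mesothelial-like cells (1770 CPM in explosion and 1404 CPM in control), Aqp4 in ciliated-like cells (216 CPM in explosion and 127 CPM in control), and Scnn1g in secretory-like cells (208 CPM in explosion and 57 CPM in control).

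Aqp1, the water channel of capillary and mesothelial membranes, was carried by mesothelial-like cells. They held 1515 of its 1763 UMIs in the explosion library (85.9%) and 3924 of 4678 in the control library (83.9%). Its level was 1770 CPM (1682 to 1861) in explosion and 1404 CPM (1360 to 1448) in control mesothelial-like cells, a ratio of 1.26 (1.19 to 1.34). That is below the 1.5-fold bound, and relative to the median gene of the class the ratio was 0.912 (0.859 to 0.968), on the other side of 1. In cluster 9 alone, the cluster with most of the explosion cells, the levels were 1775 CPM in explosion and 1498 CPM in control, at a ratio of 1.18 (0.98 to 1.44).

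The share of mesothelial-like cells with an Aqp1 UMI changed order with depth. As deposited, 71.2% of explosion and 87.8% of control cells had an Aqp1 UMI, at medians of 788 and 2038.5 UMIs per cell. With every cell thinned to 500 UMIs, 55.7% (52.3 to 59.1) of 851 explosion cells and 52.5% (49.5 to 55.5) of 1086 control cells had one. In B- and T-like cells, which should lack it, 1.99% of explosion and 0.746% of control cells had an Aqp1 UMI, at medians of 379 and 1475 UMIs.

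In blood endothelial-like cells Aqp1 was second, at 383 CPM (279 to 515) from 44 explosion UMIs and 523 CPM (451 to 603) from 189 control UMIs. The ratio was 0.733 (0.515 to 1.02), an interval that includes 1, and it was 1.08 when called doublets were kept, so no direction was read. Cells with a UMI made up 16.2% in explosion and 47.7% in control as deposited, and 17.9% (10.4 to 27.7) in explosion and 24.2% (17.6 to 31.8) in control after thinning. In the epithelial classes Aqp1 was low, and immune cells stood at 22.9 CPM in explosion and 2.96 CPM in control. Secretory-like cells stood at 11.1 CPM (5.56 to 19.9) in explosion and 2.12 CPM (1.68 to 2.64) in control, a called ratio of 5.25 (2.52 to 9.9). Both values were below the immune ones, with intervals that overlapped the immune 19 to 27.3 CPM in explosion and 2.55 to 3.42 CPM in control. Secretoglobins took 65.3% of control secretory-like and 1.98% of control immune UMIs, which lowers the secretory-like CPM more. The part of free RNA in the ratio was not tested. Ciliated-like cells stood at 28.2 CPM in explosion and 7.3 CPM in control, a ratio of 3.86 (1.71 to 7.68) on 9 explosion and 86 control UMIs. In cluster 13 alone they stood at 30.2 CPM from 9 UMIs in explosion and 3.49 CPM from 8 UMIs in control, close to the immune levels, with a ratio of 8.65 (2.96 to 25.8). Type 2 alveolar-like cells had 1 explosion and 2 control UMIs. Unnamed cluster 28, which had 10 of 11 mesothelial markers and was led by Pla2g2a and Wfdc21, held Aqp1 at 473 CPM (27 UMIs) in explosion and 222 CPM (158 UMIs) in control cells.

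Aqp4, the water channel of the basal side of airway cells, ranked first in ciliated-like and second in secretory-like cells in both libraries. The ciliated-like and secretory-like intervals did not overlap. The secretory-like interval did overlap that of type 2 alveolar-like cells in explosion, 14.8 CPM (0.374 to 82.2) from 1 UMI. In control it overlapped that of neuroendocrine-like or tuft-like cells, 24.3 CPM (12.1 to 43.5) from 11 UMIs. Ciliated-like cells held 69 explosion UMIs at 216 CPM (168 to 273) and 1501 control UMIs at 127 CPM (121 to 134), a ratio of 1.7 (1.31 to 2.16) that was not called. In cluster 13 alone the order turned, with 211 CPM (163 to 271) in explosion and 273 CPM (252 to 296) in control cells and a ratio of 0.774 (0.588 to 1). Thinned to 500 UMIs, 13.2% (9.1 to 18.3) of explosion and 14.3% (11.6 to 17.5) of control cells of that cluster had an Aqp4 UMI.

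Secretory-like cells held Aqp4 at 86 CPM (68.7 to 106) in the explosion library and 36.1 CPM (34.2 to 38.1) in control. The ratio of 2.38 (1.89 to 2.97) was close to the 2.53-fold of the class's median gene, and relative to it came to 0.94 (0.746 to 1.17). The remaining classes had few Aqp4 molecules: 1 explosion and 2 control UMIs in type 2 alveolar-like, 0 explosion and 1 control UMIs in endothelial-like and 2 explosion and 7 control UMIs in mesothelial-like cells. Immune cells stood at 4.76 CPM in explosion and 1.31 CPM in control.

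Aqp5, which in rodents marks type 1 alveolar cells and airway glands, was the only one of the 8 that was lower in explosion than in control secretory-like cells. It had 73 UMIs at 73.9 CPM (57.9 to 92.9) in explosion and 3680 UMIs at 97.5 CPM (94.4 to 101) in control cells, a ratio of 0.757 (0.592 to 0.955) that was not called. Relative to the class median the ratio was 0.299 (0.234 to 0.377), which was called lower. The mucous cluster 10, nearly absent from the explosion library, held 2048 of the 3680 control UMIs.

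By cluster, the Aqp5 ratio was below 1 in cluster 10 and above 1 in clusters 3 and 16, and its interval left out 1 in cluster 3 alone. Cluster 10 stood at 120 CPM (39 to 280) from 5 explosion UMIs and 184 CPM (176 to 192) from 2048 control UMIs. Cluster 3 stood at 174 CPM (99.4 to 282) from 16 UMIs in explosion and 61.5 CPM (58.5 to 64.5) from 1628 UMIs in control, a ratio of 2.83 (1.61 to 4.61) against a cluster median of 2.81-fold. Cluster 16 stood at 60.8 CPM (45.4 to 79.8) from 52 explosion UMIs and 42.8 CPM (11.7 to 110) from 4 control UMIs. Without cluster 10 the secretory-like ratio was 1.17 (0.904 to 1.49), and 0.437 relative to the class median. Other settings moved the ratio of 0.757 to either side of 1: it was 1.35 with a 10% limit on mitochondrial UMIs, 1.38 at the finer clustering and 0.467 in cells with at least 500 UMIs.

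In the alveolar cells Aqp5 was thinly measured. Type 2 alveolar-like cells had 0 explosion UMIs, which allows up to 44.3 CPM, and 9 control UMIs at 23 CPM (10.5 to 43.6). Cluster 29, unnamed and holding both type 1 alveolar and mesothelial markers, had 1 Aqp5 UMI in its 4 explosion cells and 18 UMIs at 93.4 CPM (55.3 to 148) in its control cells, so the gene could not be compared there. Ciliated-like cells had 14 explosion UMIs at 43.8 CPM and 862 control UMIs at 73.1 CPM, a ratio of 0.599 (0.326 to 1.01). In cluster 13 alone they had 12 explosion UMIs at 40.3 CPM (20.8 to 70.4) and 24 control UMIs at 10.5 CPM (6.71 to 15.6), a ratio of 3.85 (1.75 to 7.99) in the other direction. Endothelial-like cells had 1 UMI in each library, and mesothelial-like cells 3 explosion and 21 control UMIs.

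The promoters of Aqp1 and Aqp5 are shown because these 2 water channels were carried by different classes, mesothelial-like and secretory-like. RefSeq gives the Aqp1 window at chr4:85812534-85812833 and the Aqp5 window at chr7:132601278-132601577, both on the plus strand of build GRCr8, from 250 bases before to 50 bases after the start. Capitals mark the GC box core GGGCGG or its reverse CCGCCC, which 33.1% of the 33469 promoters of that length hold.
Aqp1: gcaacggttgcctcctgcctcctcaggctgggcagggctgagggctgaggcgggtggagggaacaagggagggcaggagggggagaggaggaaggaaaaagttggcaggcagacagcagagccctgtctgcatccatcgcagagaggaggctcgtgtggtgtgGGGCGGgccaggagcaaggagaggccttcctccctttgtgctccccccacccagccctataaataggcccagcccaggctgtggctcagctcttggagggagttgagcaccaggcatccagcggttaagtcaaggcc
Aqp5: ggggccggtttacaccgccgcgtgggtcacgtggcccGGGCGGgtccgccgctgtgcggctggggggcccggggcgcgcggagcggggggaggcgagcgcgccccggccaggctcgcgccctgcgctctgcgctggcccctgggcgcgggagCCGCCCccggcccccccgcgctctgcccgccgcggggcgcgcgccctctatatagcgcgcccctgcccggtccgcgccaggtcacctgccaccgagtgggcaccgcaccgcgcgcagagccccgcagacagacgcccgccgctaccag
The Aqp1 window held 1 GC box core and the Aqp5 window 2. Neither held a CCAAT box, the letters CCAAT or ATTGG, which 37.5% of promoters hold, and no matches overlapped. The forkhead core TGTTTAC (3.78% of promoters) and the glucocorticoid receptor half-site TGTTCT (20.7%), each searched on both strands, were in none of the windows of the 6 members that matched the promoter table (Aqp1, Aqp4, Aqp5, Scnn1b, Scnn1g and Cftr). A match describes letters and not a bound site.

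**Figure D2:**
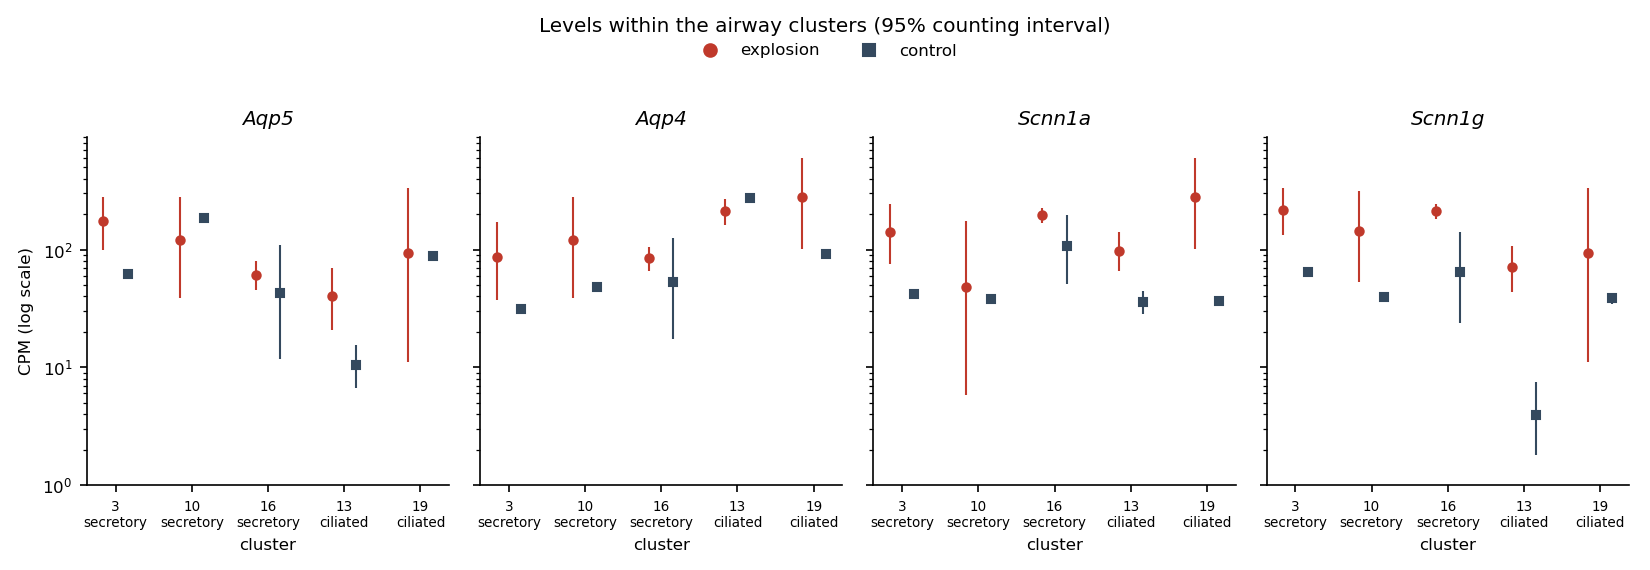
CPM (log axis) of Aqp5, Aqp4, Scnn1a and Scnn1g in the secretory-like clusters 3, 10 and 16 and the ciliated-like clusters 13 and 19, explosion (circles) left of control (squares), with 95% counting intervals. Aqp5 in control cells was highest in cluster 10 (184 CPM), and Scnn1g stood at 70.5 CPM in explosion and 3.93 CPM in control cells of cluster 13.

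The ENaC subunits were carried by secretory-like cells, which held 60.7% of the Scnn1a, 72.1% of the Scnn1b and 77.7% of the Scnn1g UMIs of the explosion library, and 71%, 81.4% and 81.4% of those in control. Scnn1a, the pore-forming alpha subunit, had 182 UMIs at 184 CPM (158 to 213) in explosion and 1550 UMIs at 41.1 CPM (39.1 to 43.2) in control secretory-like cells. Its ratio of 4.48 (3.82 to 5.23) was also higher relative to the class median, at 1.77 (1.51 to 2.06). The ratio was 2.73 (1.58 to 4.38) with a 10% limit on mitochondrial UMIs, which left 120 explosion cells in the class. At the finer clustering, which left 109, it was 2.52 (1.34 to 4.32) and was not called. In cells with at least 500 UMIs, 622 of them in explosion, it was 4.9 (4.12 to 5.8). Scnn1b, the beta subunit, had 98 explosion UMIs at 99.1 CPM (80.5 to 121) and 1473 control UMIs at 39 CPM (37.1 to 41.1), a ratio of 2.54 (2.05 to 3.12) that matched the class median at 1 (0.809 to 1.23). Scnn1g, the gamma subunit, had 206 explosion UMIs at 208 CPM (181 to 239) and 2150 control UMIs at 57 CPM (54.6 to 59.4), a ratio of 3.66 (3.15 to 4.22) and of 1.44 (1.25 to 1.67) relative to the class median.

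Within cluster 3 the subunits were counted on few explosion molecules. There Scnn1a had 13 explosion UMIs and a ratio of 3.36 (1.79 to 5.78), and Scnn1g 20 explosion UMIs and a ratio of 3.38 (2.06 to 5.24). Relative to the median gene of the cluster these came to 1.2 (0.636 to 2.06) and 1.2 (0.734 to 1.87), intervals that include 1. The 600 explosion cells of cluster 16, at a median of 1439.5 UMIs, had Scnn1a at 195 CPM (167 to 227), Scnn1b at 98.3 CPM (78.4 to 122) and Scnn1g at 211 CPM (181 to 244). Its 43 control cells, at a median of 1108 UMIs, had Scnn1a and Scnn1b at 107 CPM (51.3 to 197), from 10 UMIs each, and Scnn1g at 64.2 CPM (23.6 to 140), from 6 UMIs. Explosion over control ratios within this cluster were 1.82 (0.968 to 3.88) for Scnn1a, 0.918 (0.475 to 1.98) for Scnn1b and 3.28 (1.48 to 9.05) for Scnn1g. Only the Scnn1g interval left out 1, also relative to the cluster median at 3.03 (1.36 to 8.36), and none of the 3 was called.

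**Figure D3:**
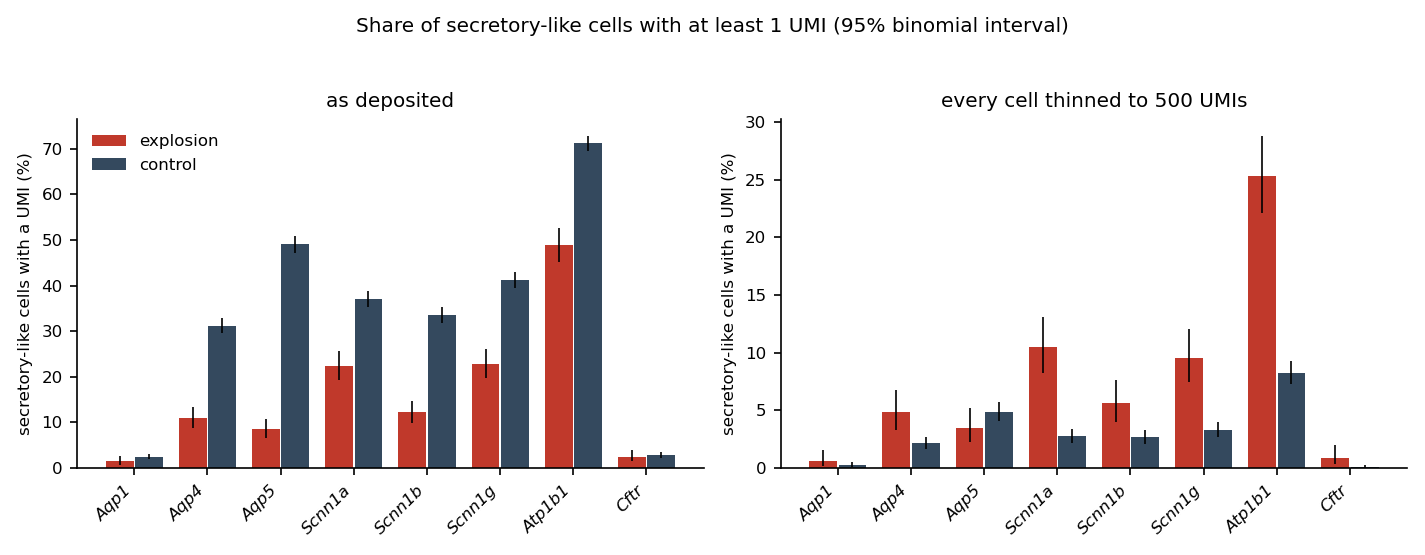
Percent of secretory-like cells with at least 1 UMI of each gene (bars from 0, 95% binomial intervals), explosion left of control, as deposited (714 and 2946 cells) and with every cell thinned to 500 UMIs (659 and 2946 cells). Scnn1a was seen in 22.4% of explosion and 37% of control cells as deposited and in 10.5% of explosion and 2.75% of control cells after thinning.

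Shares of cells turned round for the ENaC subunits when cells were thinned. Thinning evens the total UMIs per cell and not the secretoglobin share, 40.9% of explosion and 65.3% of control secretory-like UMIs. The part of that share in the turn was not tested. As deposited, at least 1 subunit was seen in 46.1% of explosion and 66.7% of control secretory-like cells, and in 1.09% of explosion and 2.19% of control immune cells, whose medians were 443 UMIs (explosion) and 4316 UMIs (control). All 3 subunits were seen together in 8 of 714 explosion cells, 1.12% (0.485 to 2.2), and in 306 of 2946 control cells, 10.4% (9.31 to 11.5). With every cell thinned to 500 UMIs, at least 1 subunit was seen in 23.4% of 659 explosion and 8.35% of 2946 control cells, and all 3 in 2 explosion cells and 1 control cell. Scnn1g was then seen in 9.56% (7.42 to 12.1) of explosion and 3.29% (2.68 to 4) of control cells, and Scnn1b in 5.61% (3.98 to 7.66) of explosion and 2.65% (2.1 to 3.29) of control cells.

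The subunits did not go together in every class. In type 2 alveolar-like cells Scnn1a had 12 UMIs at 177 CPM (91.5 to 309) in explosion and 21 UMIs at 53.6 CPM (33.2 to 81.9) in control, a ratio of 3.31 (1.48 to 7.03) that was not called. Scnn1b had 1 explosion and 3 control UMIs there. Scnn1g had 0 in both, which allows up to 44.3 CPM in the explosion and 7.65 CPM in the control library. Immune cells stood at 10.9 CPM in explosion and 2.11 CPM in control for Scnn1a, at 2.48 CPM in explosion and 1.12 CPM in control for Scnn1b and at 4.76 CPM in explosion and 1.54 CPM in control for Scnn1g. Monocyte-like cells alone had Scnn1a at 20.8 CPM in explosion and 14.1 CPM in control. Endothelial-like cells had at most 2 UMIs of any subunit in a library, and mesothelial-like cells had between 3 and 14.

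Ciliated-like cells had Scnn1a at 110 CPM (76.3 to 152) in explosion and 36.5 CPM (33.1 to 40.1) in control, with a ratio of 3 (2.06 to 4.24). In cluster 13 alone Scnn1a stood at 97.4 CPM (65.2 to 140) in explosion and 35.8 CPM (28.5 to 44.4) in control, with a ratio of 2.72 (1.72 to 4.2). Over the whole class Scnn1b stood at 56.3 CPM in explosion and 21.5 CPM in control, with a ratio of 2.62 (1.53 to 4.23), and Scnn1g at 72 CPM in explosion and 31.8 CPM in control, with a ratio of 2.26 (1.42 to 3.45). Cluster 13 alone gave another picture for the beta and gamma subunits. In its explosion cells Scnn1b had 18 UMIs at 60.4 CPM and Scnn1g 21 UMIs at 70.5 CPM, above the 4.51 and 5.64 CPM of explosion B- and T-like cells. In its control cells Scnn1b had 6 UMIs at 2.62 CPM and Scnn1g 9 UMIs at 3.93 CPM, about the level of control B- and T-like cells (2.24 and 4.21 CPM). The explosion over control ratios within the cluster were 23.1 (8.77 to 71) for Scnn1b and 17.9 (7.88 to 44.5) for Scnn1g. Secretory markers in cluster 13 summed to 162857 CPM in explosion and 92195 CPM in control cells, with 12 of 15 present in each, and their part in these ratios was not tested.

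Scnn1g and Scnn1b are shown because they encode the gamma and beta subunits of the channel and lie next to each other in the genome. RefSeq gives their promoter windows at chr1:185735975-185736274 and chr1:185861126-185861425, both on the plus strand of build GRCr8. Capitals mark the GC box core and the CCAAT box, on either strand.
Scnn1g: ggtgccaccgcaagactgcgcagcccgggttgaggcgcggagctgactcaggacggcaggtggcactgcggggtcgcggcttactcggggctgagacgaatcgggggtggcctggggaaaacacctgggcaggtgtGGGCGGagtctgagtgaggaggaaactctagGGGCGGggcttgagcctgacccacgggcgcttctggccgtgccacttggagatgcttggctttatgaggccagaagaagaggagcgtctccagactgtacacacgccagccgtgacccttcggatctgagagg
Scnn1b: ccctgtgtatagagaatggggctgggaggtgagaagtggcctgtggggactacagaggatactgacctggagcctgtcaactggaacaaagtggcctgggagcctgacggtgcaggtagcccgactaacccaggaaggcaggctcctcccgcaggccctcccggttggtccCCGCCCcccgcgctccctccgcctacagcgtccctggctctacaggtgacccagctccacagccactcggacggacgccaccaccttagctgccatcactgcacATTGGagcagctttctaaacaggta
The Scnn1g window held 2 GC box cores and no CCAAT box, and the Scnn1b window held 1 of each. The Cftr window also held both, with 2 GC box cores and 1 CCAAT box.

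Free RNA puts UMIs of a gene into droplets of cells that do not express it, and RNA from 1 source keeps its genes in 1 ratio. Each gene was therefore also set against the Scgb1a1 UMIs of the same cells. In the control library Aqp5 had 16.1 UMIs per 100000 Scgb1a1 UMIs in secretory-like cells (15.6 to 16.6), 16.4 in immune cells (14.1 to 18.9) and 20.3 in ciliated-like cluster 19 (19 to 21.7). Scnn1b had 6.45, 6.06 (4.72 to 7.66) and 5.99 (5.26 to 6.78) in the same cells, and Scnn1g 9.41, 8.31 (6.73 to 10.2) and 8.87 (7.99 to 9.83). The control immune intervals of all 3 genes, and those of Scnn1b and Scnn1g in cluster 19, held the secretory-like value, and Aqp5 in cluster 19 stood above it. Control immune intervals of Aqp4, 7.1 (5.65 to 8.81) against 5.96, and Cftr, 0.693 (0.299 to 1.36) against 0.403, held it too. The remaining members stood above it in control immune cells. Scnn1a had 11.4 (9.56 to 13.6) against 6.78, Atp1b1 40.7 (37.1 to 44.5) against 25.9 and Aqp1 16 (13.8 to 18.5) against 0.35. The secretory-like value for Aqp5 is itself an average of unlike clusters, 9.58 (9.12 to 10.1) in control cells of cluster 3 and 35.2 (33.7 to 36.8) in those of cluster 10. In control cells of cluster 13, Scnn1g had 4.51 (2.06 to 8.57), below the secretory-like value. In the explosion library Aqp5 had 45.8 (28 to 70.8) in immune and 18.4 (14.4 to 23.1) in secretory-like cells, with no overlap. Scnn1b had 29.8 (15.9 to 50.9) in explosion immune cells and 24.7 (20 to 30.1) in explosion secretory-like cells, and Scnn1g 57.3 (37.1 to 84.6) in explosion immune and 51.9 (45 to 59.5) in explosion secretory-like cells.

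Other pairs stood above the secretory-like value. Aqp5 had 220 UMIs per 100000 Scgb1a1 UMIs (130 to 348) in control cells of cluster 29. Scnn1a had 50.4 (31.2 to 77.1) in control type 2 alveolar-like and 41.1 (32.7 to 51) in control cluster 13 cells, against 6.78 in control secretory-like cells. Aqp4 had 314 (290 to 340) in control cluster 13 cells, against 5.96. In explosion cells of cluster 13, Aqp5 had 25.5 (13.2 to 44.6), Scnn1b 38.3 (22.7 to 60.6) and Scnn1g 44.7 (27.7 to 68.3), all with intervals that overlapped those of explosion secretory-like cells.

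**Figure D4:**
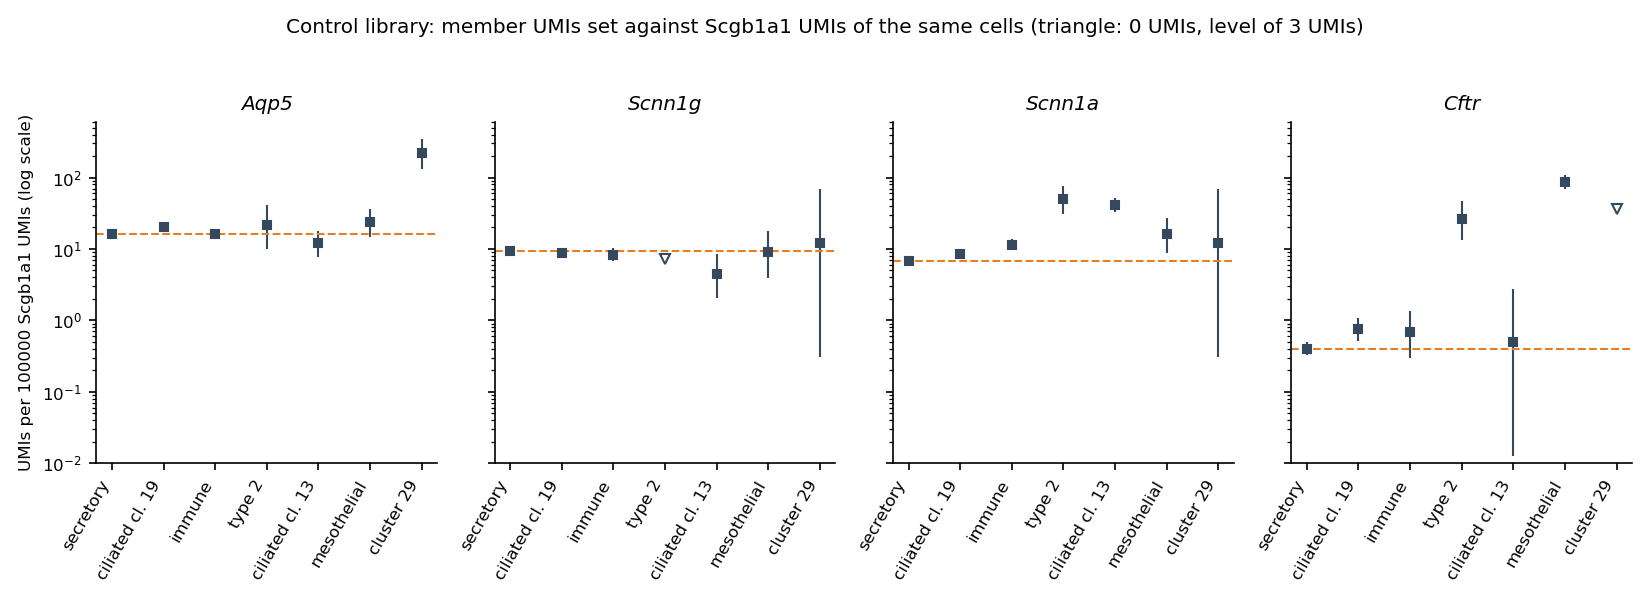
UMIs of Aqp5, Scnn1g, Scnn1a and Cftr per 100000 Scgb1a1 UMIs (log axis) in cells of the control library, with 95% counting intervals; the dashed line is the secretory-like value and open triangles mark 0 UMIs, drawn at the level of 3 UMIs. Aqp5 stood apart from the line in cluster 29 (220), and Cftr in mesothelial-like (86.7) and type 2 alveolar-like cells (26.4).

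Atp1b1, the beta subunit that brings the sodium pump to the membrane, was present in all 3 compared epithelial classes. Type 2 alveolar-like cells held 42 UMIs at 620 CPM (447 to 838) in explosion and 99 UMIs at 253 CPM (205 to 307) in control, a ratio of 2.45 (1.67 to 3.55) that was called higher. Secretory-like cells held 549 explosion UMIs at 555 CPM (510 to 604) and 5920 control UMIs at 157 CPM (153 to 161), a ratio of 3.54 (3.24 to 3.86). Ciliated-like cells held 200 explosion UMIs at 626 CPM (542 to 719) and 4178 control UMIs at 355 CPM (344 to 365), a ratio of 1.77 (1.52 to 2.04). By CPM the 3 classes did not differ beyond their counting intervals in the explosion library. In control the CPM order was ciliated, type 2 alveolar and secretory, with no overlap. Secretoglobins took 2.91%, 40.9% and 16.9% of explosion UMIs in type 2 alveolar-like, secretory-like and ciliated-like cells. In control they took 11.1%, 65.3% and 40.6%. The part of these unequal shares in the comparison between classes was not tested.

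Much of the Atp1b1 difference between the libraries followed the class as a whole. Relative to the class median the Atp1b1 ratio was 1.17 (0.797 to 1.7) in type 2 alveolar-like, 1.4 (1.28 to 1.53) in secretory-like and 0.936 (0.808 to 1.08) in ciliated-like cells. Within the secretory-like clusters, relative to the cluster median, the ratio was 0.962 (0.689 to 1.31) in cluster 3 and 1.04 (0.644 to 1.6) in cluster 10. Cluster 16 gave 1.49 (1.05 to 2.19), which was not called. In cluster 13 alone Atp1b1 stood at 601 CPM (516 to 696) in explosion and 619 CPM (587 to 652) in control cells, a ratio of 0.971 (0.827 to 1.14). Mesothelial-like cells had 65.4 CPM (49.4 to 85) from 56 explosion UMIs and 36.1 CPM (29.4 to 43.9) from 101 control UMIs, a ratio of 1.81 (1.28 to 2.53), and 1.04 (0.593 to 1.8) after thinning. Endothelial-like cells had 5 explosion and 4 control UMIs, and immune cells stood at 24.4 CPM in explosion and 7.53 CPM in control. Atp1b1 overlaps Nme7 at one end in the gene table of GRCr8, and the sources used here do not say whether the counting used strand, so reads could not be assigned with certainty.

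Cftr, the chloride and bicarbonate channel, was counted on few molecules, 74 in the explosion and 223 in the control cells. Mesothelial-like cells held 31 of them in the explosion (41.9%) and 76 in the control library (34.1%). Their level was 36.2 CPM (24.6 to 51.4) in explosion and 27.2 CPM (21.4 to 34) in control cells, a ratio of 1.33 (0.848 to 2.05), and 1.41% (0.731 to 2.45) of explosion and 1.29% (0.707 to 2.15) of control thinned cells had a UMI. Control mesothelial-like cells had 86.7 Cftr UMIs per 100000 Scgb1a1 UMIs (68.3 to 108), against 0.403 in control secretory-like cells.

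Type 2 alveolar-like cells had the highest Cftr level of the compared classes in the explosion library, at 148 CPM (70.8 to 271) from 10 UMIs, against 28.1 CPM (14 to 50.2) from 11 control UMIs, a ratio of 5.26 (2 to 13.6) that was called higher. Relative to the class median it was 2.51 (0.956 to 6.51). Control type 2 alveolar-like and mesothelial-like cells did not differ beyond their intervals. Secretory-like cells had 18 explosion UMIs at 18.2 CPM (10.8 to 28.8) and 92 control UMIs at 2.44 CPM (1.97 to 2.99), a ratio of 7.47 (4.24 to 12.5), and 2.95 (1.67 to 4.92) relative to the class median. Of the 18, cluster 16 held 17. At the finer clustering, which left 109 explosion cells in the class, 1 explosion Cftr UMI was counted there and the ratio was 3.24 (0.0812 to 18.5). Ciliated-like cells had 2 explosion and 32 control UMIs, of which cluster 13 held 2 and 1, endothelial-like cells had 0 in both libraries, and immune cells 2.1 CPM in explosion and 0.128 CPM in control.

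**Figure D5:**
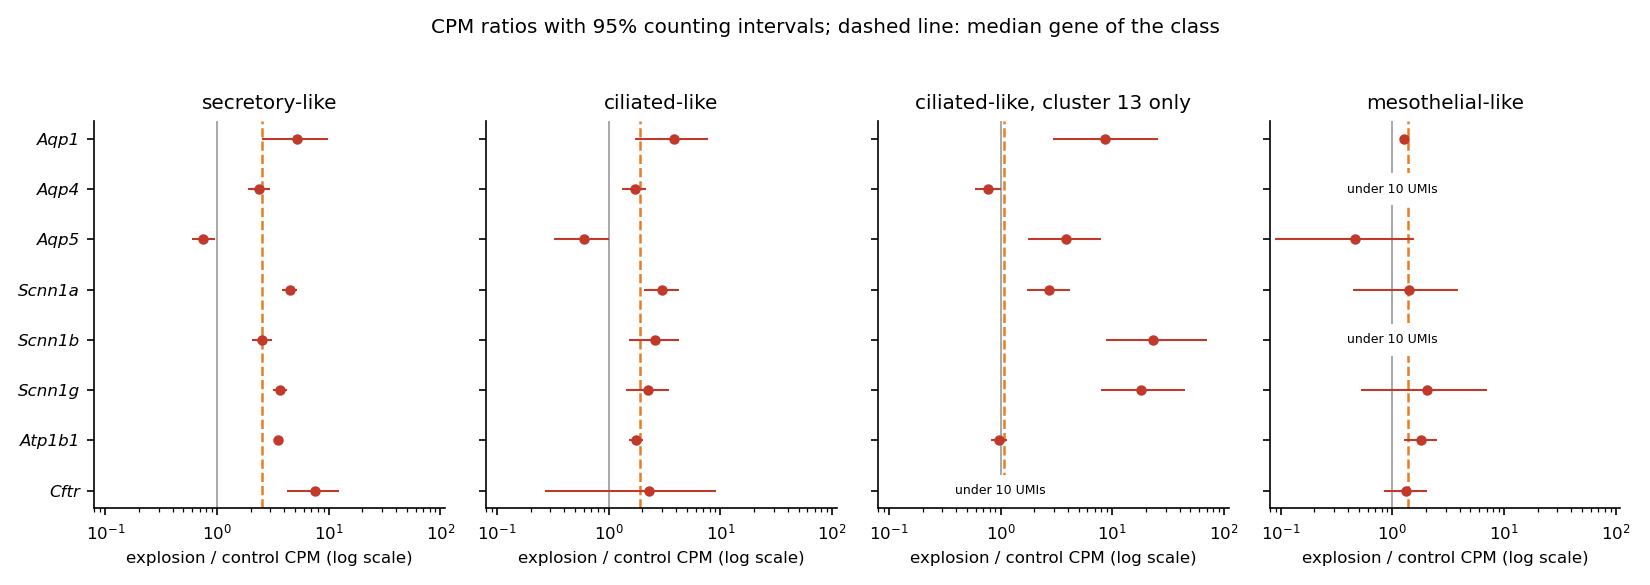
CPM ratio, explosion over control (log axis), of each gene in secretory-like, ciliated-like, ciliated-like cluster 13 and mesothelial-like cells, with 95% counting intervals; the grey line is 1 and the dashed line the median gene of the class or cluster, and genes with under 10 UMIs are written out. Aqp5 lies left of both lines in secretory-like cells (0.757), and Aqp1 lies just left of the dashed line in mesothelial-like cells (1.26).

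The genes whose levels ran most like a member's differed from member to member. They were chosen over the 14 control classes with at least 50 cells, and the likeness is given over the 12 explosion classes of that size and over those 14. The measure was Pearson's r of log2(CPM + 10), a description only, as all points of a library share its depth and free RNA. For Aqp1 they were Mtus2 (0.927 explosion, 0.989 control), RGD1310587 (0.875 explosion, 0.988 control) and Pkhd1l1 (0.914 explosion, 0.986 control). For Aqp5 they were the club cell genes Chia (0.789 explosion, 0.986 control), Scgb1a1 (0.890 explosion, 0.985 control) and Scgb3a2 (0.941 explosion, 0.980 control). For Aqp4 they were Kng1 (0.423 explosion, 0.974 control), Hsd17b2 (0.759 explosion, 0.971 control) and Trim66 (0.774 explosion, 0.960 control). The explosion values of Kng1 and Hsd17b2 rest on 13 and 3 UMIs. For Atp1b1 they were Azgp1 (0.897 explosion, 0.947 control), Cnksr1 (0.843 explosion, 0.939 control) and Erbb3 (0.968 explosion, 0.931 control).

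Each ENaC subunit had its own nearest genes. For Scnn1a they were Eps8l1 (0.939 explosion, 0.926 control), Rap1gap (0.923 explosion, 0.913 control) and Shh (0.788 explosion, on 9 UMIs, and 0.904 control). For Scnn1b they were RGD1564463 (0.960 explosion, 0.979 control), Kcnip4 (0.912 explosion, 0.969 control) and Bpifb1 (0.878 explosion, 0.953 control), and for Scnn1g Krt77 (0.889 explosion, 0.935 control), Acsm1 (0.939 explosion, 0.932 control) and Tacr1 (-0.091 explosion, on 5 UMIs, and 0.931 control). Scnn1b and Scnn1g were alike at 0.826 in explosion and 0.898 in control, Scnn1a and Scnn1b at 0.839 in explosion and 0.716 in control, and Scnn1a and Scnn1g at 0.597 in explosion and 0.586 in control. Scnn1b was about as like the water channels, at 0.856 in explosion and 0.907 in control for Aqp5 and 0.876 in explosion and 0.817 in control for Aqp4. For Cftr the nearest were Fgg (0.915 explosion, 0.986 control), Egfl6 (0.883 explosion, 0.979 control) and Veph1 (0.943 explosion, 0.968 control).

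The other genes of the pathway were taken from 5 lists of 67 genes. Among 12 further Na,K-ATPase subunits and FXYD regulators, 9 were measured in secretory-like cells, with 2 called higher and 1 lower, where 42.6% of all genes were called higher and 1.34% lower, at a median log2 ratio of 0.40 against 1.34 for the class. Atp1b3, another beta subunit of the pump, stood at 112 CPM in explosion and 49.2 CPM in control secretory-like cells, a ratio of 2.28 (1.87 to 2.77). Relative to the class median the Atp1b3 ratio was 0.902 (0.738 to 1.09), which was not called. Among the FXYD genes, which encode small proteins that tune the pump, 3 were called lower in 1 or more classes. Fxyd3 had 355 UMIs at 415 CPM in explosion and 5067 UMIs at 1813 CPM in control mesothelial-like cells, a ratio of 0.229 (0.205 to 0.255). Fxyd4 had 2 explosion and 50 control UMIs there, a ratio of 0.131 (0.0154 to 0.497), and Fxyd5 had 0 explosion UMIs in type 2 alveolar-like cells, which allows up to 44.3 CPM, against 89.3 CPM in control.

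In the mesothelial-like cells 7 genes of this list were measured, with 0 called higher and 3 lower, where 20.3% of genes were called higher and 7.49% lower. In type 2 alveolar-like cells 4 were measured, with 1 called higher and 2 lower, in ciliated-like cells 8, with 1 and 1, and in endothelial-like cells 5, with 0 and 1. Of all genes in type 2 alveolar-like, ciliated-like and endothelial-like cells, 15.6%, 23.3% and 8.78% were called higher and 3.98%, 2.6% and 5.48% lower. Relative to the class median the counts were 0 higher and 2, 2, 2, 1 and 3 lower in type 2 alveolar-like, secretory-like, ciliated-like, endothelial-like and mesothelial-like cells. In the same order, 3.05%, 11.5%, 6.2%, 4.03% and 9.81% of all genes were then called higher. Called lower were 12.1%, 10.9%, 9.12%, 9.87% and 13.1%.

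Of 19 regulators of epithelial sodium uptake, 18 were measured in secretory-like cells, with 12 called higher and 0 lower against a background of 42.6% and 1.34%. Set against the class median, 4 were called higher and 1 lower, against 11.5% and 10.9%. The list's median log2 ratio was 1.62 against 1.34 for the class. Nedd4l and Sgk1 are named here after their values were seen. Nedd4l, the ubiquitin ligase that removes ENaC from the membrane, stood at 156 CPM in explosion and 28.9 CPM in control, a ratio of 5.38 (4.52 to 6.38). Tmprss2, a membrane serine protease, stood at 128 CPM in explosion and 18.6 CPM in control secretory-like cells, a ratio of 6.92 (5.68 to 8.37), and at 153 CPM in explosion and 28.2 CPM in control ciliated-like cells, a ratio of 5.44 (3.95 to 7.37). Oxsr1, a kinase of the salt transport pathway, stood at 51.6 CPM in explosion and 9.01 CPM in control, a ratio of 5.73 (4.18 to 7.7). Sgk1, the kinase that keeps ENaC at the membrane, was called higher in mesothelial-like cells, at 261 CPM in explosion and 119 CPM in control with a ratio of 2.18 (1.83 to 2.59), and not in secretory-like cells, at 17.2 CPM in explosion and 8.27 CPM in control with a ratio of 2.08 (1.2 to 3.38). In the other classes 13 (type 2 alveolar-like), 18 (ciliated-like), 11 (endothelial-like) and 13 (mesothelial-like) of the list were measured, with 1, 6, 0 and 6 called higher and 0 lower in each, against backgrounds of 15.6%, 23.3%, 8.78% and 20.3% higher. There, 0, 2, 0 and 2 were called higher relative to the class median, against 3.05%, 6.2%, 4.03% and 9.81% of all genes. Called lower relative to it were 0, 0, 0 and 1, against 12.1%, 9.12%, 9.87% and 13.1%.

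Of 17 genes listed for chloride and bicarbonate transport, 14 were measured in secretory-like cells, with 8 called higher and 1 lower against 42.6% and 1.34% of all genes, at a median log2 ratio of 1.55 against 1.34 for the class. With the class median taken off, 3 were called higher and 1 lower, against 11.5% and 10.9%. The sodium bicarbonate cotransporter Slc4a4 stood at 99.1 CPM in explosion and 13.1 CPM in control, a ratio of 7.56 (6.02 to 9.4), and the cotransporter Slc12a2, which loads cells with chloride, at 347 CPM in explosion and 63.9 CPM in control, a ratio of 5.43 (4.84 to 6.08). Gprc5a, a receptor that the list holds although it carries no ions, stood at 60.7 CPM in explosion and 11 CPM in control, a ratio of 5.52 (4.14 to 7.25). Clca1, a secreted protein of mucous cells, was lower, at 10.1 CPM in explosion and 29 CPM in control with 10 explosion and 1093 control UMIs and a ratio of 0.349 (0.167 to 0.645). In type 2 alveolar-like, ciliated-like, endothelial-like and mesothelial-like cells 8, 13, 9 and 12 of the list were measured, with 1, 6, 0 and 2 called higher and 0 lower. Of all genes there, 15.6%, 23.3%, 8.78% and 20.3% were called higher and 3.98%, 2.6%, 5.48% and 7.49% lower. Relative to the class median 0, 1, 0 and 2 were called higher and 0, 0, 1 and 0 lower. The shares of all genes were then 3.05%, 6.2%, 4.03% and 9.81% higher and 12.1%, 9.12%, 9.87% and 13.1% lower.

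Of 12 potassium and other cation channels, 9 were measured in secretory-like cells, with 5 called higher and 0 lower against 42.6% and 1.34% of all genes, at a median log2 ratio of 2.01 against 1.34 for the class. Only 2 were called higher and 1 lower relative to the class median, against 11.5% and 10.9%. The potassium channel Kcnq1 stood at 94.1 CPM in explosion and 16.4 CPM in control, a ratio of 5.74 (4.57 to 7.15). The mechanically gated channel Piezo1 stood at 41.5 CPM in explosion and 6.94 CPM in control, a ratio of 5.97 (4.19 to 8.33). The potassium channel Kcnk1 stood at 88 CPM in explosion and 22.9 CPM in control, a ratio of 3.84 (3.04 to 4.79). Relative to the class median, Kcnq1 at 2.27 (1.8 to 2.82) and Piezo1 at 2.36 (1.65 to 3.29) were called higher, and Kcnk1 at 1.52 (1.2 to 1.89) was not. In type 2 alveolar-like and ciliated-like cells 4 and 8 were measured, with 1 and 3 called higher, against 15.6% and 23.3% of all genes. Called lower were 0, against 3.98% and 2.6%. Set against the class median, 0 were called in either direction, against 3.05% and 6.2% higher and 12.1% and 9.12% lower. In endothelial-like and mesothelial-like cells 3 and 2 were measured, with 0 called. Of all genes there, 8.78% and 20.3% were called higher and 5.48% and 7.49% lower. Of 7 other aquaporins, 3 were measured in secretory-like cells, 2 in ciliated-like and 1 in mesothelial-like cells, and 0 were called in either direction. Of all genes in those classes, 42.6%, 23.3% and 20.3% were called higher and 1.34%, 2.6% and 7.49% lower. Aqp3, also named after its values were seen, had the most UMIs of these aquaporins, 6 explosion and 63 control UMIs in secretory-like cells. It stood at 6.07 CPM in explosion and 1.67 CPM in control.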

How the data were processed

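Cells were captured with droplet 3′ chemistry, and the labels' protocols aimed for at least 5000 cells per library. The authors deposited raw UMI counts per gene and barcode as 1 matrix per library, written by Cell Ranger 7.1.0 per the file headers. Per the submitters' processing notes, Cell Ranger 6.1.1 and bcl2fastq 2.20 were used. Those notes list rn6 beside mRatBN7.2 without saying which build served for what. For the gene annotation, nothing is stated in the sources used here.

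Barcodes with under 200 genes (192 explosion, 21 control) or over 25% mitochondrial UMIs (8 and 12) were left out, as were 597 (4.8%) and 1853 (8.79%) called doublets (Scrublet in scanpy 1.11.5). Cells of both libraries were clustered together (2000 variable genes without the 8 members, 30 principal components, 15 nearest neighbours, Leiden resolution 1, python-igraph 0.11.9) and named from 226 markers. A marker counted only at 25% or more of its highest cluster's level, a rule settled, like the one on cycling cells, after the clusters were seen. The members and lists were chosen with earlier results of these data known.

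UMIs were summed per class and library and given as CPM, with exact Poisson intervals. A ratio carries the exact conditional interval for a pair of Poisson counts, and a share the Clopper-Pearson interval, all at 95%. A count of 0 was read as allowing up to 3 counts. UMIs count molecules, but cells of 1 library are not replicates, and with 1 library per group there was no test. The median gene of a class was taken over genes with a mean of at least 50 CPM. Thinned values drew 500 UMIs from each cell and left out shallower ones. Genes most like a member were the 3 with the highest correlation over classes of at least 50 cells among genes with at least 50 UMIs. Genes named from the wider lists were the 3 gene and class pairs with the largest ratio in each list and direction, among called pairs with at least 30 UMIs, and others are marked. A gene that the rule selects is not reported here. The scripts were tested on simulated data. Leaving out cluster 10 or cluster 19 was added after seeing the data, and the other alternatives are given with their effect at the end. Tools were Python 3.11.15, numpy 2.4.6, scipy 1.17.1, pandas 2.3.3 and scikit-learn 1.9.0.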

Additional observations from a re-analysis of the deposited data

Results flagged for a closer look

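Among pairs with at least 10 UMIs over both libraries, Aqp1 was the gene whose ratios lay on different sides of 1 in different classes. The CPM ratio, explosion over control, was 0.733 in blood endothelial-like cells, with 383 CPM in explosion and 523 CPM in control, and 1.26 in mesothelial-like cells, with 1770 CPM in explosion and 1404 CPM in control. It was 3.86 in ciliated-like cells, with 28.2 CPM in explosion and 7.3 CPM in control, and 5.25 in secretory-like cells, with 11.1 CPM in explosion and 2.12 CPM in control. With 1 library per group the difference between classes was not tested. The interval in endothelial-like cells includes 1. The secretory-like CPM values were below those of immune cells (22.9 CPM in explosion and 2.96 CPM in control), with overlapping intervals in each library and unequal secretoglobin shares.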

How the results depend on the processing

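No paired analysis was possible because each group has 1 library. The count of pairs called higher in the explosion library, 13, was 6 with secretoglobins left out of the class totals, 2 relative to the class median gene, 4 with cells thinned to 500 UMIs, 8 at a 2-fold bound and 8 at Leiden resolution 2. The count called lower, 0, was 1 without secretoglobins, 2 relative to the class median and 1 in cells with at least 500 UMIs. Shares of all genes called were taken only for the main setting, relative to the class median and for the ciliated class without cluster 19. The counts at the other settings have no background to be read against. Among called ratios, those that crossed 1 were Aqp1 in ciliated-like cells after thinning (0.802), Aqp4 in secretory-like cells (0.94) and Atp1b1 in ciliated-like cells (0.936) relative to the class median, and Atp1b1 in ciliated-like cells without cluster 19 (0.971). Among ratios of at least 10 UMIs that were not called, those that crossed 1 were Aqp5 in ciliated-like cells (0.599) without cluster 19 (3.85, called higher) and after thinning (1.1), Aqp5 in secretory-like cells (0.757) without cluster 10 (1.17), with a 10% mitochondrial limit (1.35) and at Leiden resolution 2 (1.38), Aqp4 in ciliated-like cells (1.7) without cluster 19 (0.774) and relative to the class median (0.899), Aqp1 in endothelial-like cells (0.733) with doublets kept (1.08), and, relative to the class median, Aqp1 (1.26, then 0.912) and Cftr (1.33, then 0.964) in mesothelial-like cells. Cftr in ciliated-like cells (2.31) had 0 explosion UMIs after thinning. The cause was not tested. Leiden resolution 2 and a 10% mitochondrial limit left 109 and 120 explosion cells in the secretory class against 2896 and 2856 control cells. Totals without Rn45s, mitochondrial and ribosomal protein genes, and no cell filter, left every ratio within its own interval. Of the 40 pairs, 4 had no ratio because the control library was at 0, and others had none after thinning. Depth limits the endothelial-like and type 2 alveolar-like cells most: 0 explosion UMIs there allow up to 26.1 and 44.3 CPM, so lower levels were not detectable.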

Other observations

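Unnamed clusters 28 and 29 held members that enter no class comparison. Cluster 28 had Atp1b1 at 228 CPM (121 to 389) in its 58 explosion cells and 197 CPM (166 to 232) in its 102 control cells. Control cells of cluster 29 had Aqp1 at 145 CPM (96.5 to 210) from 28 UMIs, 3 Atp1b1 UMIs and 0 Scnn1b and Cftr UMIs. Among the same control cells the type 1 alveolar markers ranged between 10.4 CPM (Col4a3 and Gprc5a) and 1644 CPM (Hopx), and the mesothelial markers between 36.3 CPM (Bnc1) and 5415 CPM (Krt19). Neuroendocrine-like or tuft-like cells, with 14 explosion and 82 control cells, had 0 explosion and 26 control Aqp5 UMIs, and 0 explosion and 20 control Scnn1a UMIs. The 0 counts allow up to 324 CPM in explosion, above the control 57.5 CPM of Aqp5 and 44.2 CPM of Scnn1a, so no direction was read.

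Secretory-like cells in which Aqp5 was seen were deeper than those in which it was not. Their medians were 1521 and 1378 UMIs in the explosion library, with and without an Aqp5 UMI, and 14721 and 8104 UMIs in the control library.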
